A study of Mus musculus with 6 samples.

Results

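Solute carriers are the largest group of membrane transporters in mammals, and in the liver they move amino acids, bile acids, drugs, mitochondrial metabolites and metal ions across membranes. Accessibility of their genes was followed here by ATAC-seq, which reads out where a transposase can reach and cut the DNA of nuclei. The table holds 22412 peaks, regions of open chromatin, at 10709 genes. Peaks were taken where the deposited gene symbol begins with Slc and a digit or with Slco. The glucose carriers Slc2a2 and Slc37a4 and genes whose deposited pathway entry holds glutamatergic synapse, renin secretion or calcium signaling were left out, which removed 17 peaks at 11 genes. This gave 414 peaks at 228 genes. By family number, 59 peaks at 33 genes belong to amino acid families, 55 at 25 genes to families for bile acids and organic ions, 46 at 30 genes to the mitochondrial Slc25 family, 54 at 26 genes to metal families, and 200 at 114 genes to all other families. A family is not a substrate: the amino acid families also hold carriers of neurotransmitters, and the bile acid and organic anion class also holds cation carriers such as Slc47a1. Slc9a3r1 carries the prefix and matches the rule, yet encodes a scaffold protein and no transporter.

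The 6 libraries came from mouse liver. The control group held 3 samples titled Ad-EGFP, read here as an adenovirus for the green fluorescent protein EGFP, and the other group held 3 samples titled Ad-Dyrk1b, labelled as overexpressing the kinase Dyrk1b. Both groups thus carry a virus, and the series title concerns glucose homeostasis and the gene Wbp2. The labels give no strain, sex, age, dose or time, no promoter of the virus, and do not state whether each sample was its own animal. The p-values below rest on the variation from sample to sample, part of which could be technical.

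A solute carrier gene is usually transcribed where its substrate must cross. In hepatocytes, sinusoidal carriers such as Slc10a1 and Slco1b2 take up bile acids and organic anions from blood, and ATP-driven ABC exporters send them on into bile. Amino acid carriers feed gluconeogenesis and the urea cycle, whose intermediates cross the inner mitochondrial membrane through Slc25 carriers. Metal carriers take up iron and zinc (Slc11a2 and the Slc39 family), export iron (Slc40a1) or store and export zinc (most of the Slc30 family). Many promoters of broadly used genes are rich in G and C and hold GC boxes, to which Sp1-type factors bind, or CCAAT boxes, to which NF-Y binds.

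Sequences are shown for 4 promoters. Those of Slc25a11 and Slc1a4 carry the promoter peaks lowest in p, among genes with a RefSeq window, of the mitochondrial and amino acid classes. Slc25a29 and Slc35a2 were chosen after their values were seen, as promoters whose libraries separated in opposite directions. Each run is the 250 bases upstream of the RefSeq start on GRCm38.p6, 5′ to 3′ on the strand of the gene. Capitals mark matches, on either strand, to the GC box GGGCGG, the CCAAT box, the ATF4-type element TGATGNAA and the CGCG core TCGCGA. The windows lie at chr11:70647040-70647289 (minus strand) for Slc25a11, chr11:20332714-20332963 (minus) for Slc1a4, chr12:108835877-108836126 (minus) for Slc25a29 and chrX:7883994-7884243 (plus) for Slc35a2.
Slc25a11: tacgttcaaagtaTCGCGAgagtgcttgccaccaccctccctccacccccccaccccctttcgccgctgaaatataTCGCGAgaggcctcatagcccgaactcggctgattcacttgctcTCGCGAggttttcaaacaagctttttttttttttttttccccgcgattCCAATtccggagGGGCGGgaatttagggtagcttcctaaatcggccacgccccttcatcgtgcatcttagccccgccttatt
Slc1a4: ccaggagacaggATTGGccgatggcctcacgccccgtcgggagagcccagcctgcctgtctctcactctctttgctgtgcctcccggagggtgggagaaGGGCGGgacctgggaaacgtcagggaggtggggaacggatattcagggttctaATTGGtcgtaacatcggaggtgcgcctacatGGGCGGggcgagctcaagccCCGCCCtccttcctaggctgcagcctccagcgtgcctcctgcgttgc
Slc25a29: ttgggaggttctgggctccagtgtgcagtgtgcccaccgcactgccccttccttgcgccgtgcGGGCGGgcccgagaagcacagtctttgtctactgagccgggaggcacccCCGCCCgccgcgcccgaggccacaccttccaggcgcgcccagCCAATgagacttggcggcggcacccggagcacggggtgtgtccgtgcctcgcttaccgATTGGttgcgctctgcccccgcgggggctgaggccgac
Slc35a2: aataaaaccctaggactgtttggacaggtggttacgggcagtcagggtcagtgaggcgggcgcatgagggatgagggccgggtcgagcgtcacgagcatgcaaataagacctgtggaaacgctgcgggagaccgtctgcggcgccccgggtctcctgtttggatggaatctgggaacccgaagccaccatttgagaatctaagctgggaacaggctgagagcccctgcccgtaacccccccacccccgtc
The Slc25a11 window holds 3 copies of TCGCGA, at positions -237, -174 and -130 counted from the start, beside 1 GC box and 1 CCAAT box. In Slc1a4 there were 3 GC boxes and 2 CCAAT boxes, in Slc25a29 there were 2 of each, and in Slc35a2 none of these letters was found. A match is a description of letters and says nothing of binding.

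RefSeq windows matched 174 of the 228 genes by symbol and gave 233 windows of 250 bases for solute carriers against 32851 for all genes. The GC box was present in 53.2% of solute carrier windows and 32.7% of all windows, and median GC content was 59.6% against 52.4%. By class, the GC box was found in 69.0% of Slc25 windows, 52.0% of metal windows, 50% of amino acid windows and 25% of bile acid and organic anion windows. CCAAT was about as frequent in solute carriers (32.6%) as in all windows (33.8%), with 51.7% in Slc25 windows. TGATGNAA stood in 3.43% against 3.45%, TCGCGA in 2.58% against 2.08% and the NRF1 element GCATGCGC in 1.29% against 2.26%. The 2 forms of the metal response core, TGCACNC and TGCGCNC, were each found in 24.0% of the metal windows, 6 of 25, against 10.4% and 12.5% of all windows. TGCGCNC can overlap the NRF1 element, which was found in 0 of the 25 metal windows. Both strands were searched, and some genes contribute several windows. Solute carrier windows came only from genes with a peak, whereas the windows of all genes were not limited to such genes. The part of this in the gaps was not tested.

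Positions of solute carrier peaks were like those of the table as a whole. Introns held 251 of the 414 peaks (60.63%, all peaks 60.04%), the authors' promoter class 66 (15.94%, all 15.21%), 5′ UTRs 48, exons 24, 3′ UTRs 17 (4.106%, all 2.03%) and downstream flanks 8. Counting every peak whose centre lies within 3 kb of the start of its gene, 161 were promoter peaks, at 141 genes. A single peak was listed at 125 genes, and the most, 8, at Slc22a14.

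Each library had 762633 to 1267934 reads in peaks, 1.67% to 2.62% of the library totals behind the deposited RPKM values, with a median of 26 to 47 reads per peak. Levels are given as CPM, counts divided by a library's reads in peaks after TMM scaling, and 410 of the 414 peaks had enough reads to be tested. Peaks of 3 hepatocyte marker genes (Alb, Apoa1 and Fgb) summed to 159.1 to 268.5 CPM in controls and 185.8 to 208.4 CPM with Dyrk1b. Their 4 peaks had a median log2 change of -0.305, with 3 below 0, while Ttr, Serpina1a and Tat had no tested peak. Peaks of markers of other liver cells summed to 357.1 to 391.2 CPM in controls and 402.1 to 473.0 CPM with Dyrk1b, so the groups did not overlap. Of their 11 peaks, at 8 of 24 listed genes, 9 were above 0 (81.82%, all peaks 50.45%), with a median log2 change of 0.564. Their median level was 30.07 CPM, against 35.91 CPM over all peaks. In the lowest of 3 groups of all peaks by level, 66.64% were above 0, with a median of 0.272. The part of level in the marker values was not tested. The higher ones included the B cell factor Ebf1 (1.37), the stellate gene Lrat (0.74) and 2 of 3 peaks of endothelial Pecam1 (0.68 and 0.67). The Ebf1 peak held 8.50 to 16.1 CPM in the controls. It had enough reads to be tested only through the Dyrk1b libraries, so its direction carries no weight. That peak still enters the sums and counts above. The lower ones were the other Pecam1 peak (-0.067) and 1 of 2 peaks of the macrophage factor Spi1 (-0.50, 124.1 CPM in controls and 86.52 CPM with Dyrk1b). Macrophage markers thus split, since the other Spi1 peak had 0.16 and that of Csf1r was higher without overlap (0.67). Defining markers without a tested peak included Clec4f and Adgre1 of Kupffer cells, Lyve1 and Clec4g of endothelium, Cd3e and Krt19. The part of these markers in the changes below was not tested. In bulk liver, fewer cells with an open site and a less open site in each cell cannot be told apart.

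Peaks with more and with fewer reads under Dyrk1b were about equally many among solute carriers, and no single peak passed the test. Of 410 peaks, 202 had a log2 change above 0 and 208 below 0, and the median was -0.005, against 0.005 over all 22051 peaks tested. With edgeR's quasi-likelihood test and adjustment over all peaks, 0 solute carrier peaks had an adjusted p under 0.05, where 7 of all peaks did (0.0317%), and the lowest value was 0.105, at an intronic peak of Slc16a7. Of the tested members, 37 were higher at an unadjusted p under 0.05 (9.02%, all peaks 6.44%) and 35 lower (8.54%, all peaks 7.72%). The 3 libraries of a group lay wholly above those of the other at 51 peaks (12.44%, all peaks 9.53%) and wholly below at 44 (10.73%, all peaks 9.97%). DESeq2 also called 0, with 34 higher and 36 lower at an unadjusted p under 0.05 and no adjusted p for 294 peaks, and limma-trend called 0, with 34 and 38. Without Dyrk1b 3, the library with the most reads in peaks, edgeR gave 21 higher and 23 lower at that unadjusted p. By the authors' deposited table, none (0) of these peaks had an FDR under 0.05, with 0.299 as the lowest. No solute carrier peak below is therefore said to have risen or fallen, and the values show direction and spread.

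**Figure D1:**
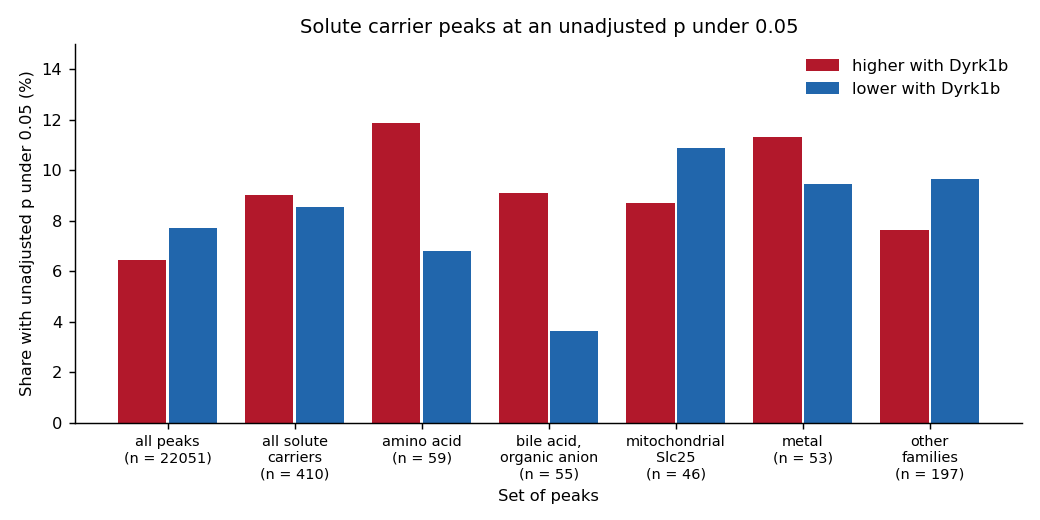
Share of peaks (%, vertical axis) with an unadjusted p under 0.05 in edgeR's quasi-likelihood test, higher (red) or lower (blue) with Dyrk1b, for all peaks, all solute carriers and each class, with the number of peaks tested under each name. Solute carriers stood at 9.02% and 8.54% against 6.44% and 7.72% of all peaks, and the bile acid and organic anion class had 9.09% higher and 3.64% lower.

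Class medians lay between -0.053 and 0.04. Amino acid carriers had a median log2 change of -0.01 over 59 peaks, bile acid and organic anion carriers 0.029 over 55, mitochondrial carriers 0.04 over 46, metal carriers -0.053 over 53 and other families -0.016 over 197. Over promoter peaks alone, solute carriers had a median of 0.003 (161 peaks) where all promoter peaks had -0.066, and over the remaining peaks -0.027 (249) where all other peaks had 0.074. Scaling by the library totals from which the RPKM values were made raised the median of all peaks to 0.17 and that of solute carriers to 0.156, and the class medians then lay between 0.103 and 0.210. The medians of amino acid, metal and other carriers thus changed sign with the scaling, and the differences between classes were not tested. Without control 1 the metal median was -0.107 and without Dyrk1b 3 it was -0.106, and without Dyrk1b 1 that of bile acid and organic anion carriers was 0.114.

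**Figure D2:**
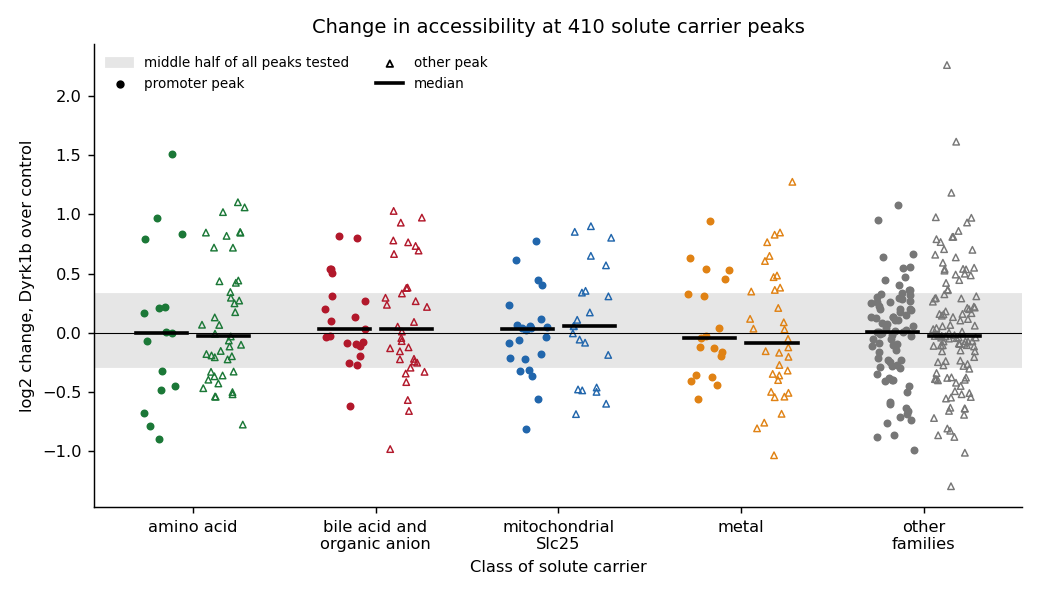
Log2 change in accessibility, Dyrk1b over control (vertical axis), at each of the 410 tested solute carrier peaks by class. Filled circles are promoter peaks, open triangles other peaks, black bars medians, and the grey band runs from the lower to the upper quartile of all peaks tested (-0.291 to 0.329). Each class spreads to both sides of 0, and its medians lie inside the band.

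Among amino acid carriers the leading peaks went in opposite directions by gene. Those of Slc3a1, Slc1a4 and Slc7a2 held fewer reads with Dyrk1b, and those of Slc6a19, Slc36a2 and several Slc7 genes held more. At an unadjusted p under 0.05, 7 of 59 peaks were higher (11.86%, all peaks 6.44%) and 4 lower (6.78%, all peaks 7.72%). The groups separated upward at 10 (16.95%, all peaks 9.53%) and downward at 10 (16.95%, all peaks 9.97%). Slc3a1 encodes the heavy chain that carries the cystine and dibasic amino acid transporter to the membrane. Its peak in intron 7 of 9 (chromosome 17, 85359799 to 85360618) held 73.9, 117 and 119.7 CPM in control libraries 1 to 3 and 50.4, 62.9 and 65.3 CPM in Dyrk1b libraries 1 to 3. All Dyrk1b values lay below all control values, with control 1 the nearest. The log2 change was -0.78 ± 0.23 (SE), with an adjusted p of 0.145. The promoter peak of Slc1a4, a neutral amino acid exchanger whose sequence is printed above (chromosome 11, 20282562 to 20283430), held 99.7, 89.9 and 130.4 CPM in the controls against 55.7, 79.4 and 63.7 CPM under Dyrk1b. The groups did not overlap, and the log2 change was -0.68 ± 0.22 (adjusted p 0.190). Slc7a2 takes up arginine and lysine, and its peak in intron 1 of 11 (chromosome 8, 41329268 to 41330324) held 104 ± 15.7 CPM without and 72.1 ± 10.1 CPM under Dyrk1b (± SD of 3 libraries, as below). Its log2 change was -0.52 ± 0.22, again with no overlap.

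Slc6a19, known as the main neutral amino acid carrier of gut and kidney, was higher in mean at the 3′ UTR (chromosome 13, 73828525 to 73828832). The peak held 16.4, 10.9 and 20.2 CPM in the controls against 30.5, 29.8 and 40.7 CPM under Dyrk1b, and every Dyrk1b library exceeded every control. Its log2 change was 1.10 ± 0.39 with an adjusted p of 0.213. Control 2 had 9 reads, and the controls alone did not have enough reads for the test, so the direction carries little weight. In intron 4 of 9 of Slc36a2, a proton-coupled carrier of small amino acids (chromosome 11, 55069746 to 55070184), the libraries held 16.4, 19.4 and 5.38 CPM in the controls against 38.5, 18.7 and 30.7 CPM under Dyrk1b. Dyrk1b 2 fell among the controls there, and the log2 change of 1.06 ± 0.44 became 0.70 without control 3. Control 3 had 4 reads, so here too the controls alone did not have enough reads for the test. The Slc7 family as a whole had a median log2 change of 0.577 over 10 peaks at 6 genes. This median stayed above 0 under every scaling tried. Of these peaks, 7 were above 0 (70%, all peaks 50.45%) and 5 had wholly higher Dyrk1b libraries (50%, all peaks 9.53%). Their median level was 25.68 CPM, against 35.91 CPM over all peaks. In the lowest of 3 groups of all peaks by level, 66.64% were above 0 and 16.31% separated upward. The part of level in the Slc7 values was not tested. The family was singled out after its values were seen.

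Slc7a7, which exports dibasic amino acids together with the Slc3a2 heavy chain, carried 4 intronic peaks. The 3 farthest from the start had log2 changes of 0.72 ± 0.40, 0.82 ± 0.43 and 0.43 ± 0.27, each with no overlap between groups, and the nearest had -0.067 ± 0.35. Slc7a11, the cystine and glutamate exchanger that supplies glutathione synthesis, held 9.38, 14.6 and 9.41 CPM in the controls against 34.5, 16.5 and 18.4 CPM under Dyrk1b in intron 6 of 11 (chromosome 3, 50361207 to 50361634). The Dyrk1b libraries were all higher, led by Dyrk1b 1, and the log2 change was 1.02 ± 0.51. This peak had enough reads to be tested only through the Dyrk1b libraries, so its direction carries no weight. The Slc7a11 promoter peak had 0.84 ± 0.46, with overlap. Slc7a6 had 0.85 ± 0.36 at 1 intronic peak, and the large neutral carrier Slc7a5 had 0.13 ± 0.26. Its heavy chain Slc3a2 was lower by mean at an exon peak (-0.33 ± 0.22, no overlap) and had a log2 change near 0 at the promoter (-0.0031 ± 0.27). After loess normalization the Slc3a2 exon peak moved to -0.165.

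The hepatocyte carrier Slc38a4, a sodium-coupled importer of neutral amino acids, carried 7 tested peaks, all annotated to introns. The one at 96917234 lay 452 bases from an annotated start, within the 3 kb used here for promoter peaks. The 7 log2 changes were -0.54, -0.10, 0.22, -0.23, -0.36, 0.42 and -0.47 in order of position. Groups separated at only 2 of the 7, downward in intron 12 of 14 (76.2 ± 13.5 CPM without and 52.7 ± 7.24 CPM under Dyrk1b) and upward in intron 1 of 15 (27.5 ± 4.07 CPM without and 37.4 ± 5.68 CPM under Dyrk1b). The others moved with single libraries left out: the peak at 96933797 had -0.058 without Dyrk1b 2 and -0.88 without Dyrk1b 1, and the ranges were 0.0435 to 0.394 at 96917234, -0.381 to -0.096 at 96926316 and -0.71 to -0.265 at 96948067. Slc38a7, a lysosomal glutamine carrier, was lower with no overlap at its promoter (-0.49 ± 0.25) and at the neighbouring intron 1 peak (-0.90 ± 0.49). The promoter peak with the highest mean of the class, in intron 3 of 7 of Slc66a2, held 108 ± 27.6 CPM without and 86.2 ± 0.940 CPM under Dyrk1b, a log2 change of -0.32 ± 0.22 that ranged from -0.514 to -0.161 as single libraries were left out. No member peak of Slc38a2 was tested, since the rule leaves that gene out.

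**Figure D3:**
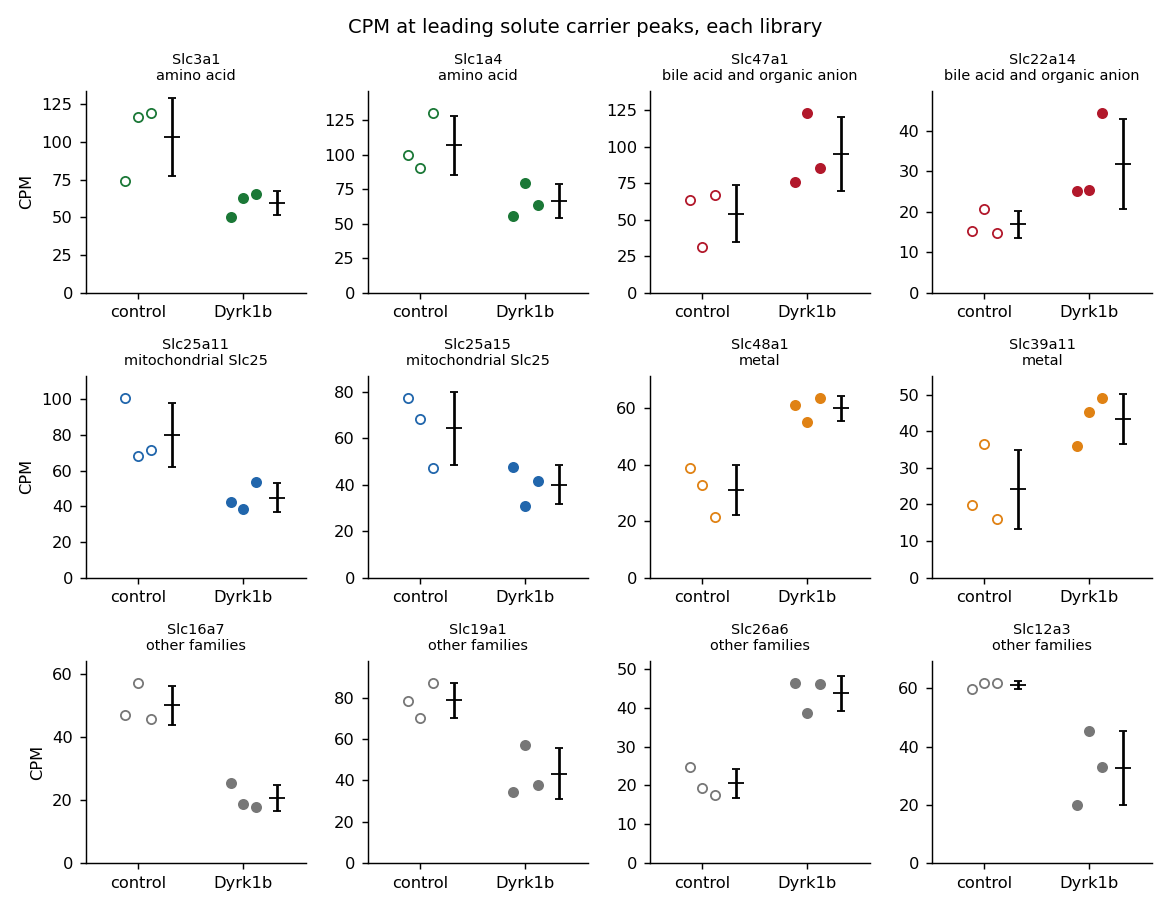
Normalised counts (CPM, vertical axes from 0) in each library at the 2 peaks of lowest p among those described here, 1 per gene, in each of the 4 classes and the 4 in the other families. Open points are control libraries, filled points Dyrk1b libraries, and black marks the mean ± SD of 3. The groups separate in all panels but Slc25a15 and Slc39a11.

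For carriers of bile acids and organic ions, the lowest p was found at Slc47a1, an exporter of cations and drugs, while the peaks of the classic bile acid carriers varied between libraries. At an unadjusted p under 0.05, 5 of 55 peaks were higher (9.09%, all peaks 6.44%) and 2 lower (3.64%, all peaks 7.72%). Groups separated upward at 7 (12.73%, all peaks 9.53%) and downward at 2 (3.64%, all peaks 9.97%). Slc47a1 encodes MATE1, which exports organic cations into bile in exchange for protons. Its promoter peak (chromosome 11, 61268774 to 61269874) held 63.3, 31.6 and 67.2 CPM in control libraries 1 to 3 and 75.6, 124 and 85.2 CPM in Dyrk1b libraries 1 to 3. Every Dyrk1b library was above every control, with control 2 low and Dyrk1b 2 high. The log2 change was 0.81 ± 0.25 with an adjusted p of 0.160, and it became 0.54 without control 2. A further Slc47a1 peak, in intron 12 of 16 (chromosome 11, 61246936 to 61247239), held 18.8, 15.8 and 20.2 CPM in the controls against 37.2, 39.7 and 35.3 CPM under Dyrk1b. Libraries of each group lay close together there, and the log2 change was 1.03 ± 0.36 (adjusted p 0.209).

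Slc22a4, a carrier of ergothioneine, was higher with no overlap in intron 2 of 9 (25.6 ± 6.53 CPM without and 43.6 ± 7.16 CPM under Dyrk1b, log2 change 0.76 ± 0.32) and in intron 1 of 9 (0.69 ± 0.42). Its promoter peak, the one with the highest mean of the class, held 91.04 ± 35.97 CPM without and 93.1 ± 9.15 CPM under Dyrk1b (0.029 ± 0.23), with control 1 at 132 CPM, above controls 2 and 3 at 68.0 and 72.6 CPM. Of the 8 intronic peaks annotated to Slc22a14, 6 had a log2 change above 0, and the groups separated only at 1 (chromosome 9, 119179362 to 119179786), which held 15.2, 20.7 and 14.8 CPM in the controls against 25.2, 25.4 and 44.5 CPM under Dyrk1b (0.93 ± 0.39, and 0.581 without Dyrk1b 3). The Slc22 family had a median of 0.217 over 33 peaks, 20 of them above 0 (60.61%, all peaks 50.45%), and 0.062 to 0.252 as single libraries were left out. With the RPKM library totals it was 0.401, with 24 above 0.

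Slc10a1 encodes NTCP, the sodium-coupled importer of bile acids on the sinusoidal side. Near its start, in intron 1 of 5 (chromosome 12, 81014714 to 81015105), libraries held 37.5, 21.9 and 30.9 CPM in the controls against 34.5, 48.5 and 47.6 CPM under Dyrk1b, and the groups overlapped through control 1. The log2 change there was 0.54 ± 0.31, and in intron 2 of 5 it was 0.54 ± 0.37. In intron 3 of 5 it was -0.99 ± 0.55, with control 1 at 7.03 CPM below every Dyrk1b library and controls 2 and 3 at 26.7 and 29.6 CPM. Single libraries moved these values: the intron 2 peak had 1.09 without control 1 and 0.207 without control 2, and the intron 1 peak 0.355 without control 2. The organic anion carrier Slco1b2 had -0.25 ± 0.23 at 1 peak in intron 3 of 15, where the libraries overlapped, and this was -0.00438 without control 1 and -0.40 without control 2. Slco2b1 had 0.0089 ± 0.25 and -0.23 ± 0.25, the latter with no overlap. Slc51b, a subunit of the basolateral bile acid exporter, held 83.5 ± 5.21 CPM without and 80.6 ± 16.3 CPM under Dyrk1b at its promoter (-0.035 ± 0.22). The Slco family had a median of -0.115 over 10 peaks, which became 0.058 with the RPKM library totals, and Slc10 had -0.083 over 9, which became 0.122. As single libraries were left out, Slco ran from -0.207 to -0.062 and Slc10 from -0.123 to 0.028. No tested member peak was found for Slco1a1, Slco1a4 or Slc51a.

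Among mitochondrial carriers the peaks went both ways, and the lowest p was found at Slc25a11, which was lower with Dyrk1b. Of 46 Slc25 peaks, 4 were higher (8.70%, all peaks 6.44%) and 5 lower (10.87%, all peaks 7.72%) at an unadjusted p under 0.05. The groups separated upward at 4 (8.70%, all peaks 9.53%) and downward at 4 (8.70%, all peaks 9.97%). Slc25a11 encodes the exchanger of malate for 2-oxoglutarate in the malate-aspartate shuttle. Its peak over the start, annotated to the 5′ UTR (chromosome 11, 70537513 to 70538123) and spanning -239 to 371 bases around the annotated start, held 101, 68.03 and 71.3 CPM in control libraries 1 to 3 and 42.5, 38.6 and 53.7 CPM in Dyrk1b libraries 1 to 3. Control 1 was the highest, and all Dyrk1b libraries were below all controls. The log2 change was -0.82 ± 0.25 with an adjusted p of 0.160. The span takes in most of the window printed above with its 3 TCGCGA matches, if the deposited start and the RefSeq start are the same. By contrast, the promoter peak of Slc25a29, a carrier of basic amino acids (chromosome 12, 108801377 to 108802288), held 69.2, 66.8 and 59.2 CPM in the controls against 75.6, 95.9 and 93.7 CPM under Dyrk1b. Every Dyrk1b library was higher, and the log2 change was 0.45 ± 0.23 (adjusted p 0.360).

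Slc25a15, which exchanges ornithine for citrulline in the urea cycle, held 77.4, 68.03 and 47.1 CPM in the controls against 47.8, 30.9 and 41.5 CPM under Dyrk1b in intron 2 of 6 (chromosome 8, 22880841 to 22881395). Control 3 fell just below Dyrk1b 1, and the log2 change was -0.69 ± 0.27. Slc25a13, the aspartate and glutamate carrier citrin, carried 5 peaks with changes on both sides of 0. The strongest, in intron 2 of 17, held 105 ± 9.87 CPM without and 74.2 ± 12.3 CPM under Dyrk1b with no overlap (-0.50 ± 0.22), and the weakest, in intron 5 of 17, had 0.85 ± 0.42, or 0.542 without Dyrk1b 1. The remaining 3 had 0.17, -0.086 and 0.34, the last moving between 0.0915 and 0.708 as single libraries were left out.

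Slc25a47, a carrier expressed mainly in liver, likewise split. In intron 1 of 2 its peaks had log2 changes of -0.46 ± 0.29 and -0.60 ± 0.26. The first was -0.29 without control 1 and -0.721 without Dyrk1b 1, and the second -0.923 without Dyrk1b 3. Farther along the gene, the downstream flank held 23.4, 13.4 and 20.2 CPM in the controls against 35.8, 31.98 and 32.2 CPM under Dyrk1b. All Dyrk1b libraries were higher there (0.80 ± 0.37), while the next peak had 0.054 ± 0.28. The deposited distances to a start were 13732 and 14319 bases for the intron peaks and 6074 and 6570 for the downstream ones. They thus refer to different annotated starts, and the intron label depends on the transcript used. Slc25a20, the carnitine and acylcarnitine carrier that feeds fatty acid oxidation, held 75.5 ± 7.67 CPM without and 77.98 ± 16.8 CPM under Dyrk1b at its start (0.043 ± 0.23). The strongest mitochondrial promoter, that of Slc25a45, held 103 ± 33.1 CPM without and 88.1 ± 19.3 CPM under Dyrk1b (-0.22 ± 0.23). The calcium-regulated ATP-Mg carrier Slc25a25 had -0.059, -0.49 and 0.11 at 3 intronic peaks, with separation, downward, only at the second.

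Among metal carriers, the heme carrier Slc48a1 held more reads at its start with Dyrk1b, and several importers of zinc and iron held fewer. Of 53 peaks, 6 were higher (11.32%, all peaks 6.44%) and 5 lower (9.43%, all peaks 7.72%) at an unadjusted p under 0.05. Groups separated at 7 in each direction (13.21% each, all peaks 9.53% upward and 9.97% downward). Slc48a1 encodes HRG1, which moves heme out of the lysosome. Its promoter peak (chromosome 15, 97682045 to 97682428) held 38.7, 32.8 and 21.5 CPM in control libraries 1 to 3 and 61.05, 55.1 and 63.7 CPM in Dyrk1b libraries 1 to 3. The lowest Dyrk1b value was well above the highest control. The log2 change was 0.94 ± 0.28 with an adjusted p of 0.155. The peak in intron 1 of 2 (chromosome 15, 97683967 to 97684377) went the other way, with 44.6, 47.4 and 40.3 CPM in the controls against 35.8, 18.7 and 37.6 CPM under Dyrk1b. All Dyrk1b libraries were below all controls there, at a log2 change of -0.51 ± 0.31.

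Slc39a14, the ZIP14 importer of zinc, iron and manganese in hepatocytes, carried 3 peaks in intron 1, each lower in mean. They had log2 changes of -0.55 ± 0.25, -0.36 ± 0.37 and -0.76 ± 0.32, and at each the groups overlapped. The last held 66.8, 27.9 and 44.4 CPM in the controls against 30.5, 28.7 and 23.8 CPM under Dyrk1b. Control 2 sat among the Dyrk1b libraries, and without control 1 the change was -0.393. The middle one ran from -0.571 without Dyrk1b 1 to -0.0546 without Dyrk1b 2. Slc39a4, the ZIP4 zinc importer, held 87.9, 88.7 and 106 CPM in the controls against 62.4, 49.6 and 77.6 CPM under Dyrk1b in exon 1 of 4 (chromosome 15, 76499976 to 76500766). Every Dyrk1b library was lower, with a log2 change of -0.56 ± 0.23. Slc39a10 and Slc39a8, also zinc importers, were lower without overlap at their 5′ UTR peaks (-0.41 ± 0.21 and -0.44 ± 0.23). In contrast, Slc39a11 had 0.83 ± 0.33 in intron 3 of 9, without overlap, and 0.85 ± 0.33 in an intron 1 peak where control 2 reached the Dyrk1b range. The Slc39 family had a median of -0.188 over 24 peaks, 14 of them below 0, and it ran from -0.329 without control 1 to -0.003 without control 3. With the RPKM library totals it was -0.032.

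Slc11a2, the DMT1 importer of ferrous iron, held 44.6, 37.7 and 49.7 CPM in the controls against 33.2, 19.8 and 23.04 CPM under Dyrk1b in intron 2 of 16 (chromosome 15, 100308934 to 100309258). Its Dyrk1b libraries were all lower, and the log2 change was -0.81 ± 0.32 (adjusted p 0.261). At the downstream flank it was -0.35 ± 0.34, between -0.63 and -0.135 as single libraries were left out. Slc40a1, the iron exporter ferroportin, had -0.12 ± 0.24 at the promoter peak in intron 1 of 3, 0.21 ± 0.27 in intron 3 of 7 (0.0844 to 0.347 as single libraries were left out) and -0.40 ± 0.25 at the downstream flank, where the value was -0.203 without control 1. The copper importer Slc31a1 had 1.28 ± 0.53 at 1 weak intronic peak where control 2 exceeded Dyrk1b 1. The strongest promoter of the class, that of Slc39a13, held 123 ± 10.7 CPM without and 120.4 ± 7.26 CPM under Dyrk1b (-0.026 ± 0.20). No member peak of the zinc exporter Slc30a1 or of Slc30a10 was tested.

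In the other families the lowest p of any solute carrier peak was found at Slc16a7. This gene encodes MCT2, a carrier of pyruvate, lactate and ketone bodies. Its peak in intron 1 of 5 (chromosome 10, 125157373 to 125157829) held 46.9, 57.1 and 45.7 CPM in control libraries 1 to 3 and 25.2, 18.7 and 17.7 CPM in Dyrk1b libraries 1 to 3. The highest Dyrk1b value lay well below the lowest control. The log2 change was -1.30 ± 0.32, with an adjusted p of 0.105, and it stayed between -1.45 and -1.18 as single libraries were left out. In the authors' deposited table the same peak had a log2 ratio of -1.15 and an FDR of 0.299. The 5′ UTR peak of Slc16a7 was also lower without overlap (-0.63 ± 0.26), and the other 4 had log2 changes between -0.51 and 0.054, all with overlap.

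Slc19a1, the reduced folate carrier, held 78.6, 70.5 and 87.4 CPM in the controls against 34.5, 57.3 and 37.6 CPM under Dyrk1b in intron 1 of 2 (chromosome 10, 76868618 to 76869238). The groups did not overlap, and the log2 change was -0.87 ± 0.25 (adjusted p 0.140). Slc12a3, the thiazide-sensitive sodium chloride carrier of kidney, carried 6 peaks, all with a log2 change below 0 in mean, from -0.88 to -0.11. The one in intron 21 of 24 (chromosome 8, 95080627 to 95081055) held 59.8, 61.95 and 61.8 CPM in the controls against 19.9, 45.2 and 33.02 CPM under Dyrk1b, with tight controls and Dyrk1b 1 lowest. Slc26a6, an exchanger of chloride for bicarbonate, oxalate and other anions, held 24.6, 19.4 and 17.5 CPM in the controls against 46.4, 38.6 and 46.1 CPM under Dyrk1b in intron 1 of 15 (chromosome 9, 108732512 to 108732911). Its Dyrk1b libraries were all higher (1.08 ± 0.33, adjusted p 0.166), while its exon peak had a change near 0 (0.0058 ± 0.22). The 10 peaks of the Slc26 anion exchangers had a median of 0.359, with 7 above 0 (70%, all peaks 50.45%). This median ran from 0.232 to 0.525 as single libraries were left out and was 0.519 with the RPKM library totals. Slc23a4, of the family of nucleobase and ascorbate carriers, had the largest change of all members, 2.26 ± 0.74, at a weak peak. It held 1.17, 4.86 and 4.03 CPM in the controls against 13.3, 19.8 and 16.1 CPM under Dyrk1b. The control libraries had 1, 4 and 3 reads and the Dyrk1b libraries 10, 18 and 21. This peak had enough reads to be tested only through the Dyrk1b libraries, so its direction carries no weight.

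Slc35 carriers bring nucleotide sugars into the Golgi apparatus and endoplasmic reticulum for glycosylation. Their family, singled out after its values were seen, had a median log2 change of -0.173 over 24 peaks at 19 genes, with 17 below 0, and this became -0.034 with 12 below 0 under the RPKM library totals, against 0.17 for all peaks. At 19 of the 24 the peak was a promoter peak, and all promoter peaks had a median of -0.066. Of the 24 peaks 29.17% were above 0, against 50.45% of all peaks and 43.18% of all promoter peaks. Slc35a2, the UDP-galactose carrier whose upstream sequence is printed above, held 42.2, 31.6 and 45.7 CPM in the controls against 21.2, 29.8 and 14.6 CPM under Dyrk1b at its promoter (chromosome X, 7749946 to 7750370). The groups did not overlap (-0.89 ± 0.35, adjusted p 0.255). Slc35a5 had -0.99 ± 0.37 and Slc35a4 -0.66 ± 0.24, both without overlap. Slc35b2, a carrier of the sulfate donor PAPS, was higher without overlap at its promoter (0.32 ± 0.25).

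Peaks of the same transporter often went different ways. Of 62 solute carrier genes with exactly 2 tested peaks, both had the same sign at 30 (48.39%), against 51.31% of 2397 such genes in the whole table. With 3 or more peaks, all had the same sign at 7 of 41 genes (17.07%, against 20.79% of all genes), among them Slc39a14 and Slc12a3. Slc48a1, Slc10a1, Slc38a4, Slc25a13 and Slc25a47 had peaks on both sides of 0.

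**Figure D4:**
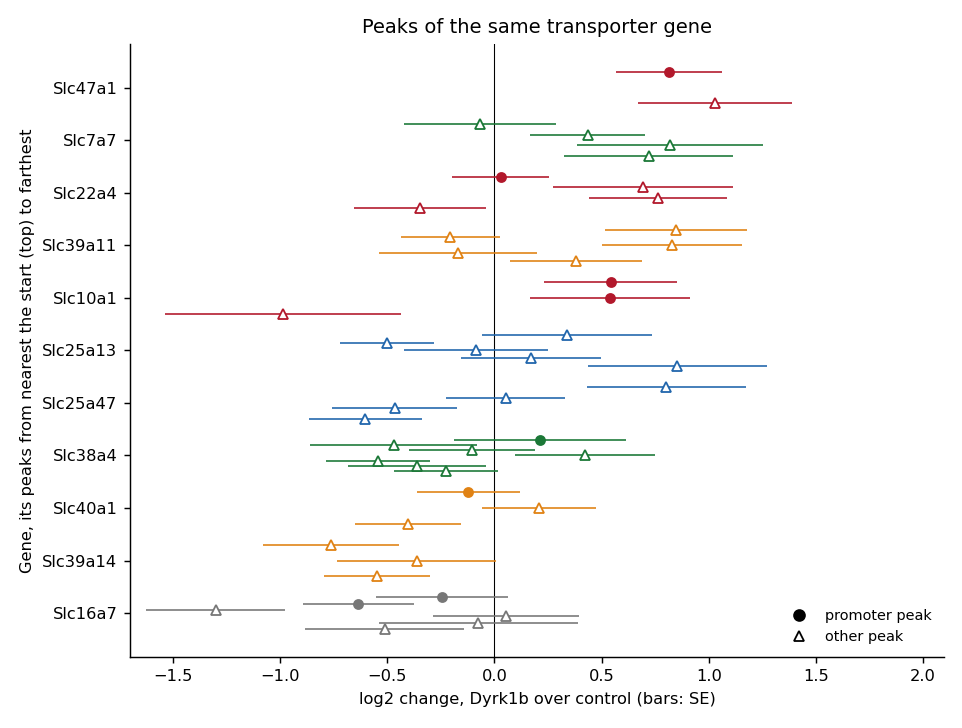
Log2 change ± SE (horizontal axis) of every tested peak at 11 transporter genes with several peaks, chosen after their values were seen. Circles are promoter peaks, triangles other peaks, colours the class, and within a gene the peak nearest the start is on top. Both Slc47a1 peaks lie above 0 and the 3 Slc39a14 peaks below 0, while Slc10a1, Slc25a13, Slc25a47 and Slc38a4 have peaks on both sides.

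Change went with the level of a peak, in solute carriers as in the table as a whole. Among 3 equal groups of all peaks by mean CPM, the solute carrier peaks of the lowest had a median log2 change of 0.209 (130 peaks, all peaks 0.272), those of the middle -0.028 (133, all 0.014) and those of the highest -0.094 (147, all -0.129). The share above 0 was 66.15%, 46.62% and 36.73%, against 66.64%, 51.20% and 33.51% of all peaks. Of the 37 solute carrier peaks higher at an unadjusted p under 0.05, 22 were in the lowest group, and of the 35 lower ones 20 were in the highest. The higher means at Slc6a19, Slc36a2 and Slc7a11 and the lower ones at Slc3a1, Slc1a4 and Slc25a11 follow this order, whereas Slc47a1 was higher at a strong promoter. For Slc6a19, Slc36a2 and Slc7a11, reads of the Dyrk1b libraries were needed for the peak to be tested, as given above. The part of level in each change was not tested. Per kb of peak, median levels were 87.9 CPM for Slc25, 83.1 for metal, 80.3 for amino acid, 79.1 for other and 76.2 for bile acid and organic anion carriers, against 78.0 over all peaks. The highest levels per kb were at the nucleoside carrier Slc29a1 (159 CPM), at Slc9a3r1 (156 CPM) and at Slc25a45 (147 CPM).

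**Figure D5:**
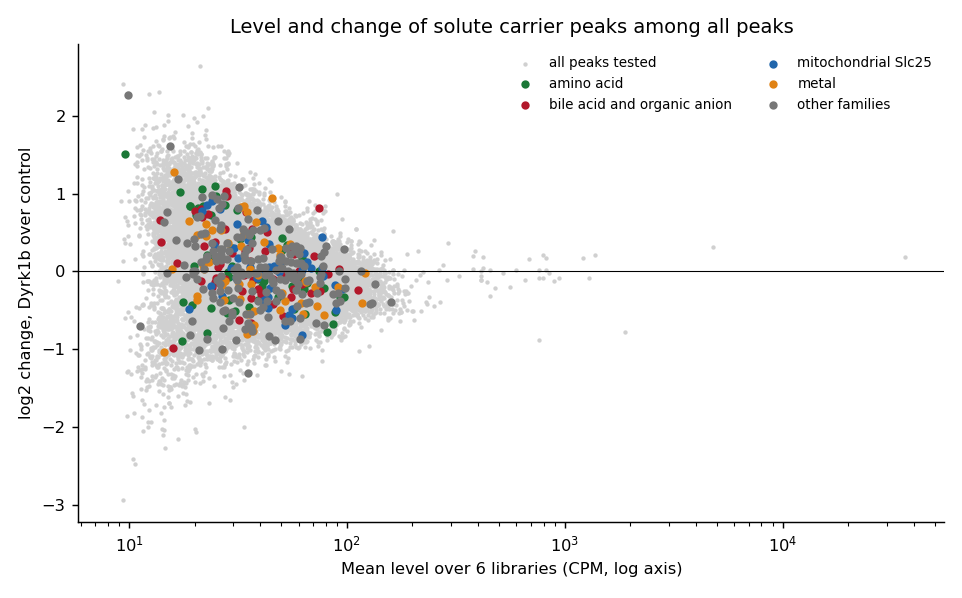
Mean level over 6 libraries (CPM, log axis) against log2 change, Dyrk1b over control, for all peaks tested (grey) and solute carrier peaks (coloured by class). Solute carrier peaks follow the whole table: their median change was 0.209 in the lowest of 3 groups by level and -0.094 in the highest.

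Partner genes outside the solute carriers, taken from fixed lists, held no called peak either. Metal handling genes had the lowest median log2 change, -0.367 over 22 peaks at 14 genes, with 17 below 0. With the RPKM library totals it was -0.198 with 15 below 0, and with loess normalization -0.239. At an unadjusted p under 0.05, 0 were higher and 6 lower (27.27%, against 6.44% and 7.72% of all peaks), the latter being peaks of ceruloplasmin (Cp, log2 change -0.81), the ferritin chains Ftl1 (-0.59) and Fth1 (-0.57), the iron regulatory protein Aco1 (-0.98 and -0.74) and the metal-responsive factor Mtf1 (-0.54). The groups overlapped at both of these Aco1 peaks and at that of Mtf1. Further peaks had -0.16 at the Aco1 start, -0.23 at Ftl1 and -0.076 at Mtf1, all with overlap. For Cp, libraries held 50.4, 60.7 and 49.7 CPM in the controls against 30.5, 27.6 and 33.0 CPM under Dyrk1b, so the groups did not overlap, and the adjusted p was 0.216. The median level of the list was 47.91 CPM, against 35.91 CPM over all peaks. In the highest of 3 groups of all peaks by level, the median log2 change was -0.129, and 11.86% were lower at that unadjusted p. The part of level in the list was not tested. The metal carriers themselves had a median of -0.053.

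ABC exporters, which send bile acids, lipids and conjugates out of the hepatocyte, had a median of -0.02 over 27 peaks, 14 of them below 0. Intronic peaks of Abcc2 and Abcc3 were lower without overlap (log2 changes -0.76 and -0.61), and a weak one of Abcb1b was higher (1.62). The Abcb1b peak held 4.69 to 8.07 CPM in the controls. It had enough reads to be tested only through the Dyrk1b libraries, so its direction carries no weight. The bile acid synthesis list had a median of -0.209 over 18 peaks, 11 below 0, with the promoter of Nr1h4, the bile acid receptor FXR, at 38.9 ± 2.48 CPM without and 23.9 ± 6.60 CPM under Dyrk1b (log2 change -0.70). Without control 2 the list had -0.081. Urea cycle and amino acid genes had 0.034 over 14 peaks, 7 below 0, with an Ass1 intron peak at -0.82, and genes for mitochondrial import of fuels had -0.02 over 17, 9 below 0, with the Ucp2 promoter at -0.92. Marker sums of other liver cells were higher with Dyrk1b, as given above, and their part in these lists was not tested.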

How the data were processed

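The authors deposited whole read counts per peak and library over 1 merged peak set, and RPKM values made from them, per the file headers. Per the file headers the deposited table also holds the authors' log2 ratio of group mean RPKM, a p-value and an FDR per peak. No count is below 1. Per the submitters' processing notes, Bowtie2, DiffBind and ChIPseeker were used. Not given in the sources used here are the peak caller, duplicate handling, any transposase shift and the authors' test. Peak coordinates are printed as deposited. The notes list mm10, but the deposited positions of printed genes differ from GRCm38, so the build is not settled, and RefSeq windows were matched by symbol. The authors' distance to a start is that of the peak centre, and for 6 member peaks it is to the start of another gene.

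Counts were tested with edgeR 4.0.16 (R 4.3.3): TMM, filterByExpr (22051 peaks kept, 361 removed; 4 of these were solute carrier peaks, 1 each of Slc41a2, Slc14a2, Slc9a2 and Slc9a9), quasi-likelihood test of Dyrk1b against control with no covariate, Benjamini-Hochberg adjustment over all peaks, threshold 0.05. The common biological coefficient of variation was 19.9%. Alternatives were other scalings, no filter, a replicate block, leaving out each library, DESeq2 1.42.0, limma-trend 3.58.1 and 1 peak per gene. Pearson correlations were 0.703 to 0.812 within groups and 0.674 to 0.748 between them.

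Named peaks were, in each of 4 classes, the 4 of lowest p (1 per gene) and the promoter with the highest mean, the 5 of lowest p in other families, and hepatocyte transporters fixed by name. Some genes are not reported here by name, although their peaks enter every count and median. Other named peaks (such as those of Slc7a6, Slc7a7, Slc7a11, Slc38a7, Slc22a4 intron 1, Slc47a1 intron 12, Slc48a1 intron 1, Slc25a29, Slc39a8, Slc39a10, Slc31a1 and Slc35) and single families were chosen after their values were seen. Members and lists were chosen with earlier results of these data known.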

Additional observations from a re-analysis of the deposited data

How the results depend on the processing

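The count of 0 called solute carrier peaks was the same under the 13 alternatives in which calls were counted. Calls were not counted with the RPKM library totals or with 1 peak per gene. The counts at an unadjusted p under 0.05 ran from 21 (without Dyrk1b 3) to 33 higher and from 23 (without Dyrk1b 3) to 38 lower as single libraries were left out. The cause was not tested, though fewer libraries enter.

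Class medians moved beyond their spread mainly with the scaling. With the RPKM library totals they were 0.156 (all solute carriers), 0.158 (amino acid), 0.210 (bile acid and organic anion), 0.192 (Slc25), 0.103 (metal) and 0.149 (other), where all peaks had 0.17. With library size only they were 0.030 (all) and 0.020 (other), and with loess normalization Slc25 had 0.097. With 1 peak per gene, the strongest, they were -0.034 (all), -0.127 (metal) and -0.042 (other), against -0.054 for all peaks. As single libraries were left out, the metal median ran from -0.107 to -0.020, that of other families from -0.024 to 0.016 and that of bile acid and organic anion carriers from -0.024 to 0.114. For the partner lists, whose alternatives were chosen after seeing the data, as were those for single families, the RPKM totals gave 0.117 (ABC exporters), -0.060 (bile acid synthesis), 0.201 (urea cycle), 0.151 (mitochondrial import) and -0.198 (metal handling), and loess gave 0.108 (mitochondrial import) and -0.239 (metal handling). The bile acid synthesis list ran from -0.226 to -0.081 as single libraries were left out. Apart from the choice of scaling itself, the cause was not tested.

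Named peaks near 0 changed sign. Slc51b had 0.0022 with library size only and 0.118 with loess, Slc39a13 0.0092 and 0.174, and the Slc3a2 promoter 0.033 and 0.080, 0.000365 with DESeq2 and 0.066 with limma-trend. With loess the Slc40a1 peak at 45964620 had 0.0040 and the Slc25a25 peak at 32309353 had 0.050. As single libraries were left out, sign changed over these ranges: Slc25a45 -0.421 to 0.0583, Slc25a13 (6160520) -0.267 to 0.0778, Slc25a25 -0.263 to 0.122 (32309353) and -0.0614 to 0.27 (32326940), Slc25a47 (108823444) -0.161 to 0.185, Slc51b -0.223 to 0.0746, Slc39a13 -0.0969 to 0.0224, Slco2b1 (99313718) -0.221 to 0.232, Slc25a20 -0.0913 to 0.192, the Slc22a4 promoter -0.146 to 0.408, the Slc3a2 promoter -0.223 to 0.316, Slc7a5 -0.00775 to 0.279 and Slc38a4 (96909448) -0.203 to 0.00188. The cause was not tested.

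The labels share replicate numbers between groups, but same-numbered libraries did not deviate together (correlations -0.0098, -0.014 and 0.0073). With the replicate number as a block, 0 peaks were called, 34 were higher and 35 lower at an unadjusted p under 0.05, and the Slc3a2 promoter had 0.047. With 26 to 47 reads in the median peak, the part of depth and of the spread between libraries in the lack of calls was not separated.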
